A study of Mus musculus with 14 samples.

Results

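The immediate early genes followed here are Fos, Fosb, Jun, Junb, Atf3, Egr1, Egr2, Nr4a1, Ier2 and Ier3, 10 of the 16877 genes tested on the arrays. They were taken by name: a probe belonged to the set if the platform annotation gave it one of these symbols. All 10 were present, each with 1 probe, and each had a value on all 14 arrays, so no member was lost to a filter. The arrays compared RNA of 12 mammary tumours from Brg1+/- mice (Cy5) with a common mouse reference RNA (Cy3). Brg1, encoded by Smarca4, is an ATPase that remodels chromatin as part of SWI/SNF, and all the tumours shared this heterozygous genotype. A second array, labelled biorep, was run for T172 and for T284, and T55, T135, T160, T176, T221, T372, T646, T920, T2023 and T2134 had 1 array each. The labels also carry the word MIXED, which they leave unexplained, and give no age. No control tissue or other genotype was compared, so every comparison was between tumours.

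Immediate early genes are switched on within minutes of a growth factor, cytokine or stress signal, from transcription machinery that is already in place, so that no new protein has to be made first. Mitogen-activated protein kinases (MAPK) carry the signal to factors bound at the promoters, among them serum response factor at the CArG box and CREB at the cyclic AMP response element (CRE). Most of the products are themselves transcription factors, their transcripts are short-lived, and in mammary epithelium they follow signals such as those of the epidermal growth factor receptor.

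A value is the log2 ratio of tumour over reference, with the base inferred from the range of values: 0 means the level of the reference and 1 means 2-fold above it. The reference is not normal mammary tissue, and a gene's position against 0 also contains any dye effect, which cancels between tumours. Ratios carry no signal strength, so a dim probe cannot be told from a bright one, and ratios of different genes do not rank their transcript levels. Neither the animal behind each tumour nor the step repeated in a biorep is named in the labels, so p-values hold for these samples only. The F-test uses the spread between repeat arrays of a tumour, and the other tests use the spread between tumours. For T172 and T284 the tumour value is the mean of both arrays.

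The promoter sequences of 5 members are shown because their values carry the differences described below or, for Fos, because it varied little beside them. Each is the 250 bases before the transcription start in RefSeq (GRCm38.p6), read 5′ to 3′ on the gene's strand. Capitals mark a CRE half-site (TGACG, or CGTCA on the other strand), a CRE-like site (TGACATCA), a CArG box, an NF-kB site, an Egr site (GCGNGGGCG or its complement) or TATAAA. GC boxes (GGGCGG) were searched but not capitalised.
Jun, chr4:95052223-95052472, minus strand: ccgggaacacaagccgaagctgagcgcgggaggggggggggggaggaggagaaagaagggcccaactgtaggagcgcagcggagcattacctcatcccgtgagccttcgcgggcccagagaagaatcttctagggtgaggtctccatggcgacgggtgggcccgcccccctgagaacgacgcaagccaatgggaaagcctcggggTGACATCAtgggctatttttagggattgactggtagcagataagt
Fos, chr12:85473640-85473889, plus strand: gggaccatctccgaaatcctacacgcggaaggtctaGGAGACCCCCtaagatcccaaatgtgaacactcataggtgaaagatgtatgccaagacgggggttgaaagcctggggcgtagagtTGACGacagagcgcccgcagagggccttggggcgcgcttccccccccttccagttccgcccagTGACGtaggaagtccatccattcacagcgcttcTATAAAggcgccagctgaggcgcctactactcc
Egr2, chr10:67537619-67537868, plus strand: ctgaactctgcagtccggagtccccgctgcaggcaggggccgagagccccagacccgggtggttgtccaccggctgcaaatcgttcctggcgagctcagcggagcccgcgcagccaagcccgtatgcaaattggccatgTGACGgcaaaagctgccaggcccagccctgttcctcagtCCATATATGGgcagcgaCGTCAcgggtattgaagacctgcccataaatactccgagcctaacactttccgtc
Nr4a1, chr15:101266596-101266845, plus strand: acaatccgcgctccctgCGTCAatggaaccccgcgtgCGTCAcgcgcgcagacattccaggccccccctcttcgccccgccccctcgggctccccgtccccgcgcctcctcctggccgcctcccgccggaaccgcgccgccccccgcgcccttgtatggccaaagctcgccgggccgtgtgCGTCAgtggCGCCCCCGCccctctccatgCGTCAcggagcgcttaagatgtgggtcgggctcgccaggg
Ier3, chr17:35821463-35821712, plus strand: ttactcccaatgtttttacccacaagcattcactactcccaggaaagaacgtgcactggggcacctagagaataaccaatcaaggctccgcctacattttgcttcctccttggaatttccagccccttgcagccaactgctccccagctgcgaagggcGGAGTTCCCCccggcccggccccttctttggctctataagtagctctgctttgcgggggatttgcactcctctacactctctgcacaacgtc

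In all, 8 members had a promoter window, and both strands were searched in each. Egr1 and Ier2 had no window and were not searched. A CRE half-site lay in the windows of 6 of these 8, Atf3, Egr2, Fos, Fosb, Junb and Nr4a1, against 17.8% of all 32851 windows. A member counts if any of its windows holds the site, and Egr2 has 5 windows, whereas the shares are over single windows. Nr4a1 held 4 half-sites, and a CRE-like pattern, TGACATCA, lay in the Jun window (2.93% of all windows). The half-site and TGACATCA were added to the search after the windows had been read, so their counts are only a description. The full CRE (TGACGTCA, 1.55% of windows) and the AP-1 site (TGANTCA, 6.75%) were in no member's window. Among the 8 members searched, a CArG box was in Egr2 alone, in 4 of its 5 windows, and in 1.47% of all windows. Sites further than 250 bases from a start, and any in Egr1 or Ier2, would have been missed. Some of those 4 windows overlap and hold the same CCATATATGG, so they are not 4 separate sites. An NF-kB site was in Egr2, Fos, Fosb and Ier3 (7.25% of windows), for Egr2 in another of its windows than the one printed, an Egr site in Fosb and Nr4a1 (4.70%), and TATAAA in Fos (12.4%). The GC box lay in 7 of the 8 members with a window and in 32.7% of all windows; it overlaps the Egr site in Nr4a1 and Fosb and the NF-kB site in Ier3. These are matches of letters and were not tied to binding in these tumours.

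Across the set, the tumours differed in 5 of the 10 genes. Nr4a1, Ier3, Egr2, Egr1 and Junb passed limma's F-test over the 12 tumours at an adjusted p under 0.05, whereas 18.3% of all genes did. Jun, Atf3, Ier2, Fosb and Fos did not pass. The test uses the spread within a tumour as its error, and that was measured only by the repeat arrays of T172 and T284 and then moderated over all genes. The SD over tumours had a median of 0.698 for the members and 0.386 for all genes. Egr2, Ier3 and Nr4a1 had an SD of at least 1, as did 7.93% of all genes. The SD within a tumour was 0.15 for Fosb and 0.60 for Junb before moderation, and 0.29 and 0.39 after it. For Fos, Fosb, Ier2 and Atf3 the SD over tumours was below the moderated within-tumour SD.

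**Figure D1:**
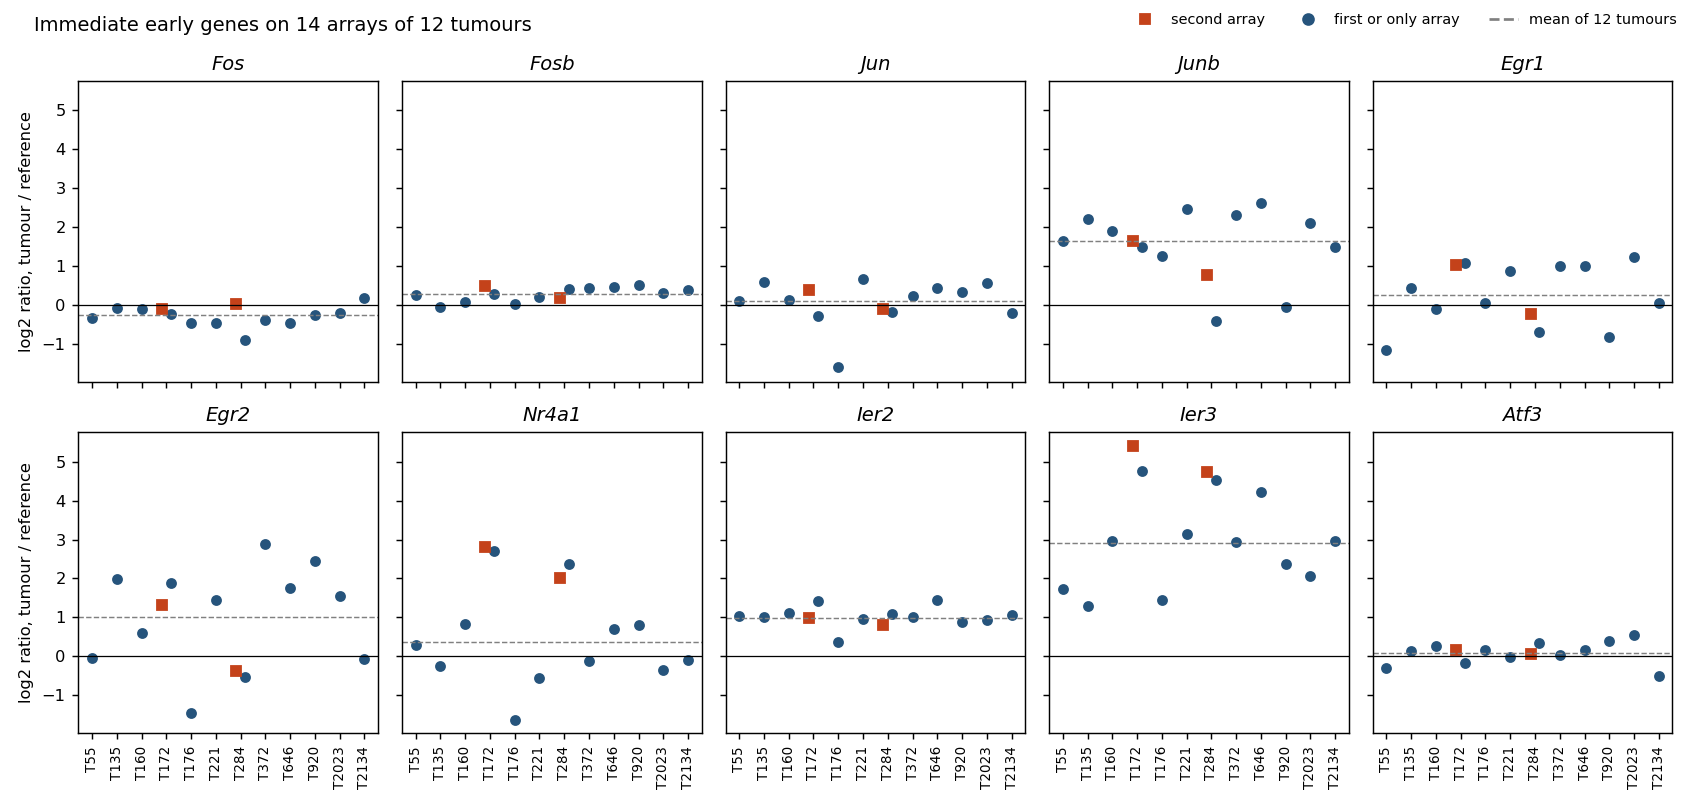
Log2 ratio of tumour over reference (vertical axis) of each immediate early gene in the 12 tumours (horizontal axis). Squares are the second arrays of T172 and T284, circles the first or only array, the solid line is 0 and the dashed line the mean of the 12 tumours. Ier3 lies above 1 in all tumours, Jun is far below the others in T176 (-1.59), and Nr4a1 stands high on both arrays of T172 and T284.

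**Figure D2:**
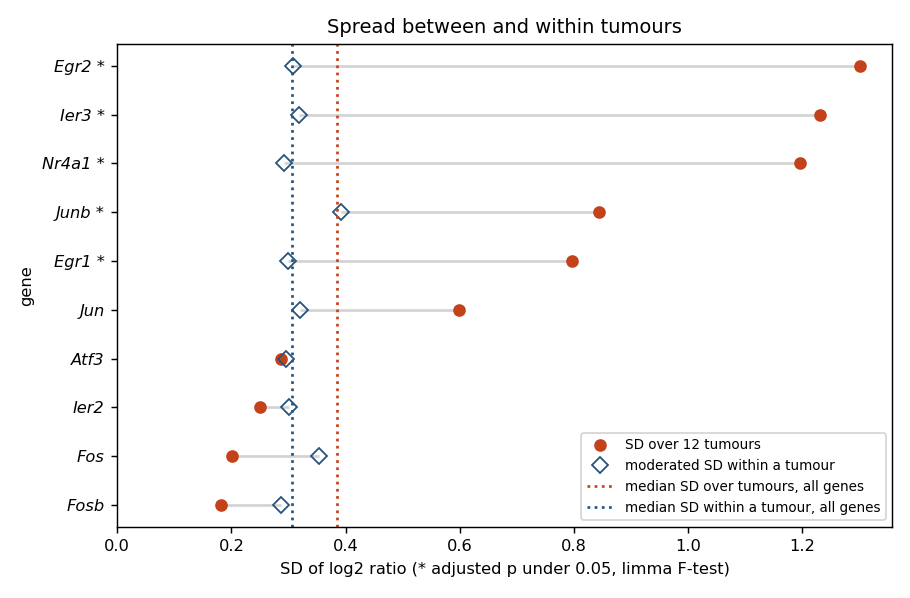
SD of the log2 ratio over 12 tumours (filled circles) and moderated SD within a tumour (open diamonds) for each gene, with the medians of all genes as dotted lines. Asterisks mark the 5 genes with an adjusted p under 0.05 in limma's F-test. Egr2, Ier3 and Nr4a1 spread more than 1 log2 unit over tumours, while Fos and Fosb spread less than the median of all genes.

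Fos and Fosb, which encode partners that bind DNA in AP-1 only together with a Jun protein, hardly moved. Fos had its lowest value in T221 (-0.48), a median of -0.30 and its highest in T2134 (0.19). It lay below the reference in 11 of the 12 tumours, with a mean of -0.27 ± 0.20 (SD, n = 12; limma F-test, adjusted p = 0.980). Fosb lay between -0.05 in T135 and 0.52 in T920, with a median of 0.30 and a mean of 0.27 ± 0.18 (SD, n = 12; limma F-test, adjusted p = 0.967). In both genes no neighbours in the order of tumours were further apart than the 95% interval of a difference, 1.13 for Fos and 0.91 for Fosb between single arrays. Smaller differences between 2 single arrays were not detectable. For Fos the repeat arrays of T284 differed by 0.94, more than the highest and lowest tumours (0.66), with 0.02 on the second array and -0.91 on the first.

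Jun and Junb are the Jun-family subunits of AP-1, which bind DNA as Jun dimers or with a Fos partner. Jun was -1.59 in T176, its lowest value. The other 11 tumours lay between -0.20 in T2134 and 0.66 in T221, with a mean of 0.25 ± 0.30 (SD, n = 11). T176 thus stood alone, 1.38 below its nearest neighbour, where the 95% interval of a difference between single arrays is 1.02. Jun in T176 was 1.83 ± 0.32 (SE) below the mean of the others on the log2 scale, and this passed limma's test of 1 tumour against the other 11 (adjusted p = 0.00463). In T176, 1.35% of all genes were called lower, and Jun was the sole member called in any tumour by this test. The F-test over all tumours, whose error is the spread between repeat arrays, did not call Jun (limma adjusted p = 0.121). The arrays of T172 read 0.39 on the second and -0.29 on the first. Without the first or the second of them Jun passed (limma adjusted p = 0.0494 and 0.0490), as did 23.8% and 23.1% of all genes. Those fits take their within-tumour spread from T284 alone, where the Jun arrays differed by only 0.08, so these passes add no support. A term for the second arrays takes out a shift that they share. With it Jun also passed (limma adjusted p = 0.00141), as did 42.4% of all genes. The labels name no array round. The error of that fit is only what the repeat arrays of T172 and T284 leave after the shared shift, so this pass adds no support either.

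The Junb ratio was high in most tumours and was low in a pair of them. T920 had -0.05 and T284 had 0.18, against 1.27 in T176, the next lowest, and up to 2.62 in T646, with a median of 1.76. The gap of 1.09 between T176 and T284 just passed the 95% interval of 1.08 for a difference between a single array and a pair. That interval is not adjusted for the steps compared, so T920 and T284 are not established as a separate group. Junb was at least 2-fold above the reference in 10 of the 12 tumours and averaged 1.64 ± 0.84 (SD, n = 12; limma F-test, adjusted p = 0.0380). The arrays of T284 differed by 1.18, with 0.77 on the second and -0.41 on the first. Without T920, Junb no longer passed (limma adjusted p = 0.0695). Neither low tumour was called against the other 11 (limma adjusted p = 0.283 for T920 and 0.738 for T284).

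Atf3, a stress-inducible member of the ATF/CREB family that can pair with Jun, stayed close to the reference. It lay between -0.51 in T2134 and 0.55 in T2023, with a median of 0.15 and a mean of 0.09 ± 0.29 (SD, n = 12; limma F-test, adjusted p = 0.731). No neighbouring tumours differed beyond the 95% interval.

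Egr1 and Egr2 encode zinc-finger factors that bind the same GC-rich site. Egr2 had the highest SD of the members and a 20.5-fold range, close to the 20.9-fold range of Nr4a1. It was highest in T372 (2.89), T920 (2.44) and T135 (1.98), and T646, T172, T2023 and T221 followed between 1.77 and 1.44. Its median was 1.49. T160 had 0.59, T55 -0.04, T2134 -0.07 and T284 -0.46, and T176 was lowest with -1.47. Only the last step, 1.01 from T284 to T176, exceeded the 95% interval of 0.85. Smaller steps among the upper tumours were not resolved, so groups and a gradual order cannot be told apart there. Both arrays agreed on the side: T172 had 1.32 on the second and 1.87 on the first, and T284 had -0.39 on the second and -0.54 on the first. The mean was 1.02 ± 1.30 (SD, n = 12; limma F-test, adjusted p = 0.00126). T176 was 2.71 ± 1.02 (SE) below the other 11, which did not pass after adjustment over all genes (limma adjusted p = 0.229).

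Egr1 spread less, over a 5.23-fold range. It was highest in T2023 (1.24), T172 (1.05), T646 (1.01) and T372 (0.998), had a median of 0.25, and was lowest in T284 (-0.47), T920 (-0.83) and T55 (-1.15). No step between neighbours exceeded the 95% interval. Smaller steps were not resolved, so groups of tumours and a continuous series cannot be told apart. The mean was 0.26 ± 0.80 (SD, n = 12; limma F-test, adjusted p = 0.0149). The order of tumours differed from that of Egr2: T920, second highest for Egr2, was second lowest for Egr1, and T176 was in the middle for Egr1 with 0.05. Over the 12 tumours the pair had r = 0.46, which did not pass (permutation adjusted p = 0.665).

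Nr4a1, the orphan nuclear receptor Nur77, separated T172 and T284 from all other tumours. It was 2.82 on the second and 2.70 on the first array of T172, and 2.01 on the second and 2.38 on the first array of T284. The other 10 tumours lay between -1.63 in T176 and 0.82 in T160, so no array of T172 or T284 overlapped them. T172 and T284 were also the highest tumours for Ier3 and, among the related genes, for Sgk1, Atf2, Egfr and Spred1. The share of all genes with these tumours on top was not counted, so the pattern cannot be called particular to Nr4a1. The step from T284 to T160 was 1.38, against a 95% interval of 0.80. At the other end, T176 lay 1.07 below T221 (-0.56), against an interval of 0.93. Nr4a1 had the smallest adjusted p of the members, 0.000741 in limma's F-test, with a mean of 0.38 ± 1.20 (SD, n = 12). Each set against the other 11 tumours, T172 was higher by 2.60 ± 0.92 (SE) and T284 by 1.98 ± 1.03 (SE), and neither passed (limma adjusted p = 0.997 and 0.797). In both tests the group of 11 held the other high tumour.

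Ier3, which encodes a regulator of cell survival and of MAPK signalling, had the highest ratios of the set. Its values were 5.40 on the second and 4.76 on the first array of T172, 4.72 on the second and 4.53 on the first array of T284, and 4.22 in T646. The other tumours lay between 3.15 in T221 and 1.29 in T135, and the median was 2.95. The step of 1.07 from T646 to T221 narrowly exceeded the 95% interval of 1.01. That interval is not adjusted for sorting the tumours or for the steps compared, so a separate group of 3 tumours is not established. The mean, 2.90 ± 1.23 (SD, n = 12), corresponds to 7.47-fold above the reference (limma F-test between tumours, adjusted p = 0.00116). Ier3 was more than 2-fold above the reference in all 12 tumours, which held for 21 genes, 0.126% of those measured in every tumour.

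Ier2, another early response gene, was also above the reference in all 12 tumours, as were 9.48% of genes, but it hardly varied. It was lowest in T176 (0.36), had a median of 1.01 and was highest in T646 (1.45). The mean was 0.99 ± 0.25 (SD, n = 12; limma F-test, adjusted p = 0.841). T176 was 0.68 ± 0.23 (SE) below the other 11, which did not pass after adjustment (limma adjusted p = 0.156).

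Seen by tumour, T176 was lowest for 4 members, Jun, Egr2, Nr4a1 and Ier2. It lay below the mean of the other 11 in 9 of 10 members, Atf3 being the exception (0.17 in T176 and 0.08 on average in the others). The share of all genes lowest in T176 was not counted, and 644 genes were called there, against 1 to 37 in each other tumour. The median difference of T176 from the other 11 was -0.55 over the members and -0.02 over all genes. T646 was above the mean of the other 11 in 9 of 10 members, with a median difference of 0.43 over the members and -0.01 over all genes. T172 was highest for Nr4a1 and Ier3 and above the others in 7 of 10 members, as were T135, T160, T372 and T2023. For none of these counts by tumour was the share of all genes worked out, so they do not set the members apart. Besides Jun in T176, 10 differences of a member in 1 tumour had an unadjusted p under 0.05 in limma, and none of those passed the adjustment. With Jun included, 4 of the differences under 0.05 lay in T176. Every member was tested in every tumour, so some unadjusted values under 0.05 arise by chance. The share of all genes under that threshold was not set beside this count. The count therefore cannot tell whether members differed more often than other genes.

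Markers of cell types differed between tumours along with these values. Krt18 and Epcam, which mark the luminal epithelium of the mammary gland, lay above the reference in every tumour but T176. Other luminal markers did not all do so: Krt19 was -3.43 in T172 and -3.66 in T284, Krt8 was -0.45 in T221, and Cdh1 was -0.34 in T172. In T176 all 8 luminal epithelial markers were lower than in any other tumour, with a median of -5.08 relative to each gene's mean. Krt18 was -4.25 in T176 and 2.36 on average in the other 11 (limma adjusted p = 1.57e-05), and 7 of 8 fibroblast markers were above their mean there (median 2.75). The luminal median was 0.94 in T172, with 6 of 8 markers above their mean, and 0.85 in T284, with 7 of 8. The basal medians were -2.42 in T172 and -2.39 in T284, with 5 of 6 markers below their mean in each, and the fibroblast medians were -0.90 and -1.16. In T646 the basal median was -1.97, the fibroblast median 1.38, the macrophage median 1.13 and the lymphocyte median 1.48. The part of these cell types in the Jun, Nr4a1 and Ier3 values was not tested. In bulk RNA, fewer cells of a type and less RNA per cell cannot be told apart. T176 also had 644 genes called against the other 11, of which 417 (2.47% of all genes) were higher and 227 lower, whereas the other tumours had from 1 to 37.

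The repeat arrays differed little for most members. In T172 no member was 2-fold or more apart between the second and the first array, as 5.11% of all genes were, and the median absolute difference was 0.273 for the members and 0.306 for all genes. The members furthest apart were Jun (0.68), Ier3 (0.64) and Egr2 (-0.55), each as second minus first. In T284 only Junb (1.18) was 2-fold apart, against 5.63% of all genes, and the median absolute difference was 0.279 for the members and 0.338 for all genes. Fos came next with 0.94. No member moved by 0.5 or more in both tumours.

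**Figure D3:**
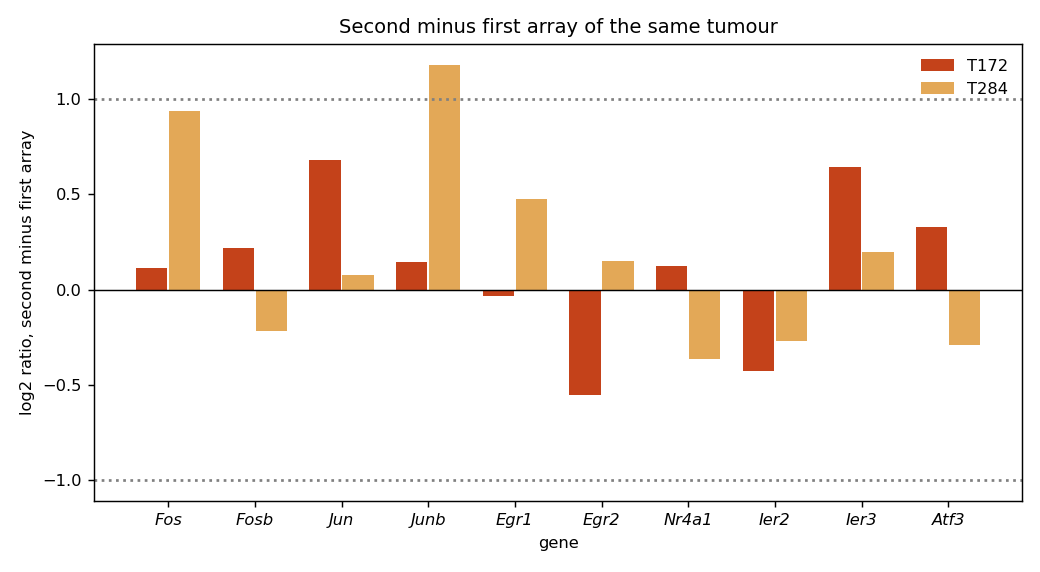
Difference in log2 ratio, second minus first array (vertical axis), of each immediate early gene (horizontal axis) for T172 and T284; dotted lines mark 2-fold. Junb in T284 (1.18) is the one bar beyond 2-fold, and Fos in T284 (0.94) comes close.

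The correlations between members differed from pair to pair. Fos, Fosb, Ier2 and Atf3 varied less over tumours than the moderated SD within a tumour. A low r in a pair with one of them therefore cannot tell whether the genes vary together. Of the 45 pairs among the 10 genes, 32 had a positive and 13 a negative Pearson correlation over the 12 tumours, with a median r of 0.195. By permutation with 100000 resamples and adjustment over the 45 pairs, 2 pairs passed by Pearson's r and none by Spearman's rho. By each of the measures 4 pairs had an unadjusted p under 0.05. Nr4a1 and Ier3 had r = 0.80 (permutation p = 0.00186, adjusted p = 0.0418) and rho = 0.62 (permutation p = 0.0366, adjusted p = 0.526). Without T172 and T284, the tumours farthest from the median of both genes, r was 0.48 and the relation no longer passed (permutation adjusted p = 0.618), so it rests on those 2 tumours. Jun and Egr2 had r = 0.77 (permutation p = 0.00136, adjusted p = 0.0418) and rho = 0.65 (permutation p = 0.0257, adjusted p = 0.526). For this pair r was 0.69 without T176 and T221, the tumours farthest from the median of Jun, and 0.64 without T176 alone, where it did not pass (permutation adjusted p = 0.540).

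Junb and Egr1 followed with r = 0.69 (permutation p = 0.0117, adjusted p = 0.175) and rho = 0.59 (permutation p = 0.0468, adjusted p = 0.526), or r = 0.55 without T920 and T284. Jun and Ier2 had r = 0.68 (permutation p = 0.0556, adjusted p = 0.460) and rho = -0.02 (permutation p = 0.955, adjusted p = 0.977). That relation rested on T176, for r was -0.07 in the other 11 tumours.

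**Figure D4:**
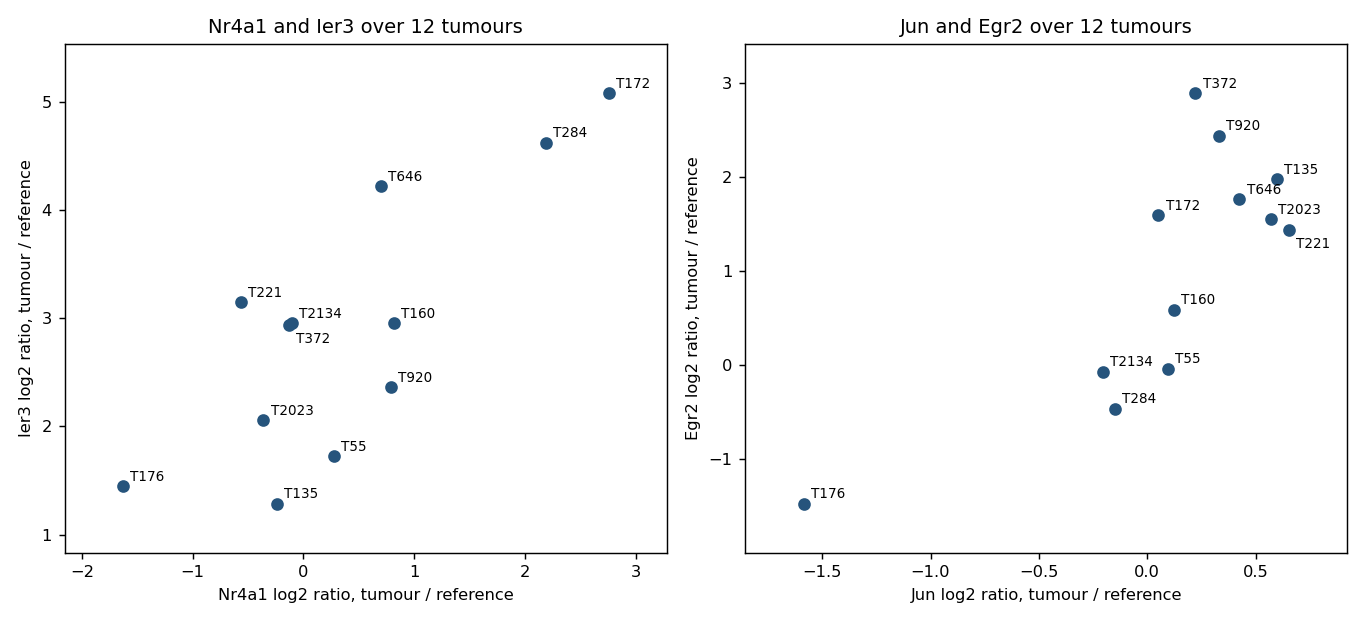
Log2 ratios over 12 tumours of Nr4a1 (horizontal) against Ier3 (vertical), left, and of Jun (horizontal) against Egr2 (vertical), right; each point is 1 tumour. T172 and T284 lie at the top right of the Nr4a1 plot (r = 0.80 with them, 0.48 without), and T176 lies alone at the bottom left of the Jun plot.

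Among 5403 other genes with an SD of at least 0.5, those most like each member over the 12 tumours were found by Pearson's r, as a description of these arrays. Dtnb and Rnf103 were most like Nr4a1 (both r = 0.95), and Scgb2b27 (0.93) and Smagp (0.92) most like Ier3. Dtnb shared the Nr4a1 pattern at its top, with 3.12 in T172 and 3.07 in T284. Jun was most like Xist (0.96) and N4bp1 (0.94), both lowest in T176 with -4.29 and -0.47. Egr2 was most like Bdnf (0.93) and Fbln2 (0.82), and Ier2 most like Clu (0.92) and Tnfrsf12a (0.91), all 4 also lowest in T176. Junb went with Rbms1 and Slc25a30 (both r = 0.92), and Egr1 with Gsdma (0.88) and Pick1 (0.82). The best matches were 0.84 (Ppp1r1b) and 0.83 (Tnfrsf11b) for Fos, 0.79 (Lmtk2) and 0.78 (Col26a1) for Fosb, and 0.81 for both Reep5 and Rprd1b with Atf3. The mean of the 10 members, each centred on its own mean, was most like Tnfrsf18 (0.96), Dock9 (0.88), Anxa9 (0.88), Cebpb (0.87), Phlda2 (0.85) and Klhl21 (0.84). These values are the highest of a long search and carry no test.

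Related genes were counted beside the members. Of 30 further early response genes, 18 passed the F-test between tumours, which 18.3% of all genes did, with a median SD of 0.757. They did not share one order of tumours: Klf4, a Krüppel-like factor, was lowest in T284 (-4.10) and T172 (-3.94) and highest in T135 (2.05), and Klf2 was highest in T176 (0.56). In T176, 4 of the 30 were called lower than in the other 11 (1.35% of all genes) and 1 higher (2.47%). Phlda1 was -1.26 in T176 and 3.30 on average in the other 11 (limma adjusted p = 0.00339), and the chemokine Cxcl1 was -0.15 in T176 and 2.89 on average in the others (limma adjusted p = 0.0331). Sgk1, a serum-inducible kinase, was likewise lower in T176, with -2.56 against 0.16 (limma adjusted p = 0.0458). Ccn2, a matrix-associated growth factor, was lowest in T172 (-1.44) and highest in T646 (2.37). The other Egr and Nr4a genes, Egr3, Egr4, Nr4a2 and Nr4a3, had SDs of 0.22, 0.43, 0.35 and 0.21, and none passed. Ier5, named with Ier2 and Ier3, had an SD of 0.88 and passed (limma F-test, adjusted p = 0.0221). Jund, Fosl1 and Fosl2, of the Jun and Fos genes, had SDs of 0.54, 0.32 and 0.38 and did not pass.

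Of 20 other genes of the AP-1, Maf, ATF/CREB and C/EBP families, 5 passed, a share near the 18.3% of all genes: Cebpd, Batf, Maf, Jdp2 and Cebpb. Batf, another Jun partner, was lowest in T172 (-0.74) and T284 (-0.49) and highest in T135 (2.27). Cebpd was also highest in T135 (2.92), and Maf in T221 (0.86). Jdp2, a partner of Jun, was 2.34 in T176 and -0.25 on average in the other 11 (limma adjusted p = 0.00955), opposite to Jun. Cebpb was -0.64 in T176 and 1.72 on average in the others (limma adjusted p = 0.00345). Of 11 heat shock genes, 4 passed, beside 18.3% of all genes. Each of these 4 had its lowest value in T176, with -1.56 for Hspa1a, -1.06 for Hsph1, -2.39 for Hspb1 and -0.60 for Hspe1. Hspe1 had no value in T55. A low value in T176 itself helps a gene pass the F-test, so this is a description. Of the heat shock genes that did not pass, Dnaja1 and Hsp90aa1 were also lowest in T176. Hspa8, Hspa5, Dnajb1, Hspd1 and Bag3 were lowest in other tumours. No heat shock gene was called in T176 against the other 11 tumours.

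The feedback inhibitors of the MAPK pathway, phosphatases and adaptors that the pathway itself induces, were set beside Nr4a1 and Ier3. Of 16 measured, 6 passed the F-test, beside 18.3% of all genes: Dusp6, Dusp16, Dusp10, Dusp14, Spry1 and Dusp4. Dusp6, a phosphatase of ERK, was 3.25 in T646, 2.79 in T172 and 2.62 in T284, and lowest in T176 with -1.42. T172, T284 and T646 were also the 3 highest for Ier3. Dusp4 was also highest in T172 (2.36) and lowest in T176 (0.13), whereas Dusp10, which acts on stress-activated kinases, was lowest in T284 (-2.98) and T172 (-2.82). Dusp16 was highest in T372 (3.49) and lowest in T176 (-0.24), Dusp14 was highest in T221 (1.58), and Spry1 was highest in T172 (0.74) but -1.01 in T284. Of 19 measured upstream kinases and factors, 3 passed, Nras, Mapkapk2 and Egfr, a share near the 18.3% of all genes. Mapkapk2, a kinase downstream of p38, was highest in T2023 (1.36) and lowest in T920 (-1.61). Nras was 3.79 on the second and 3.38 on the first array of T172, against at most 0.38 in the other tumours. Egfr was highest in T284 (1.71) and T172 (1.70) and lowest in T176 (-0.45). Srf, the factor that binds the CArG box, had an SD of 0.39.

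**Figure D5:**
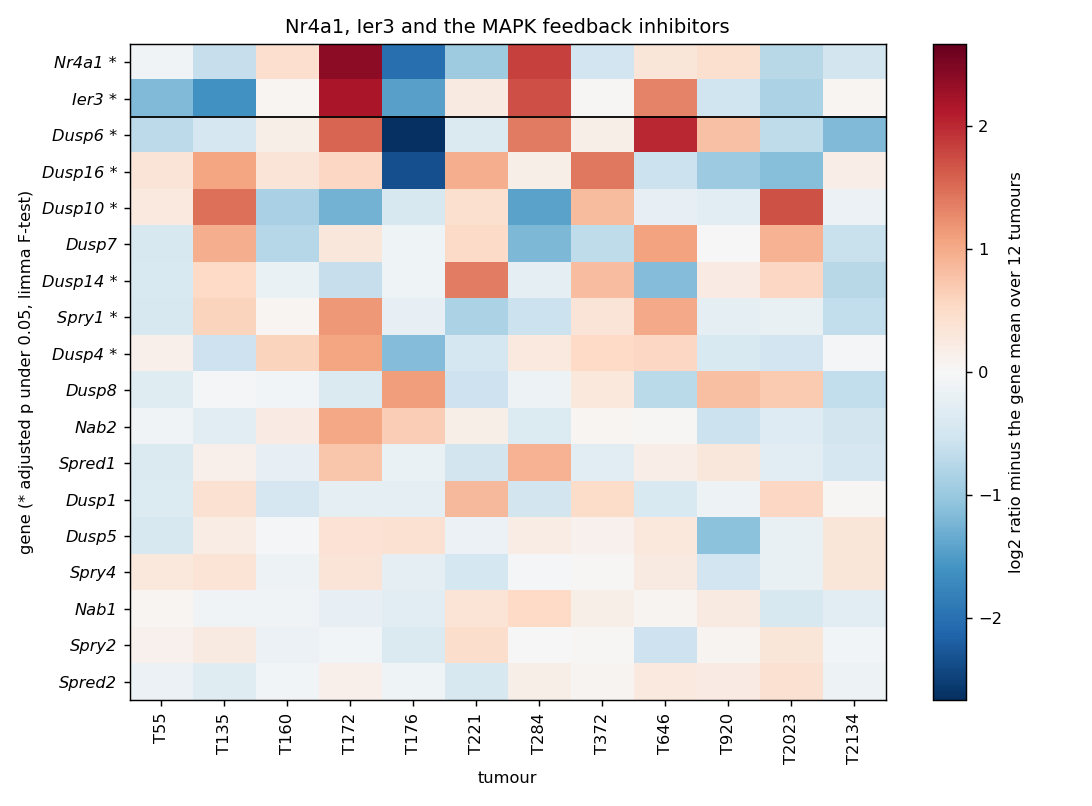
Log2 ratio centred on each gene's own mean of the 12 tumours (colour scale) for Nr4a1 and Ier3, above the line, and 16 MAPK feedback inhibitors, below it in order of their SD; columns are tumours. Asterisks mark an adjusted p under 0.05 in limma's F-test, and Dusp6 is high in T172, T284 and T646 and lowest in T176 (-1.42 before centring).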

How the data were processed

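Tumour RNA (Cy5) was hybridised with a mouse reference RNA (Cy3) on 14 two-colour arrays, per the labels. The deposited series table holds log2 ratios, whose base and per-array centring (medians 0 to 0.018) were inferred from the values. The direction follows the dyes. For the scanner and for how spots were corrected, normalized and filtered, the steps are not given in the sources used. Each array had 22501 to 22566 of 22575 probes, and 0.172% of values were missing.

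Probes with 1 symbol in the platform annotation (18658) were used. Symbols were updated through RefSeq (GRCm38.p6), 18445 by gene identifier and 24 by accession. Probes of a gene were averaged, and genes needed values on at least 12 arrays. No further normalization was applied.

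Tumours were compared with limma 3.58.1 in R 4.3.3, by a moderated F-test on 14 arrays (prior with 7.22 degrees of freedom and an SD of 0.313) and by a moderated test of each tumour against the other 11, the lone tumour being assumed to vary like the rest. P-values were adjusted after Benjamini-Hochberg over 16877 genes and called under 0.05. The order intervals come from the moderated SD and are not adjusted over neighbours or for sorting the tumours by the same values. Pairs used two-sided permutation with 100000 resamples. Python 3.11.15, numpy 2.4.6, pandas 2.3.3 and scipy 1.17.1 did the rest. The fits were tested on simulated data.

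The members, lists and tests were chosen with earlier results of these data known. Named are all members, up to 6 called genes of each related list with the largest SD, the 2 genes most like each member, the 6 most like their mean, and examples of marker lists. Genes named outside this rule (Srf, Egr3, Egr4, Nr4a2, Nr4a3, Ier5, Jund, Fosl1 and Fosl2) were chosen after their values were seen. Alternatives were quantile normalization, a robust prior, 1 probe per gene, complete genes and a term for the second arrays. Others were first or second arrays alone, other thresholds and leaving out arrays. Probes fitted singly and pairs without T172 and T284 were added after seeing the data.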

Additional observations from a re-analysis of the deposited data

How the results depend on the processing

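The count of members called between tumours was 5 and stayed between 4 and 6 under 20 alternatives. At an adjusted p under 0.01 it was 3: Nr4a1, Ier3 and Egr2. Nr4a1, Ier3, Egr2 and Egr1 passed under all 20 refits and Fos, Fosb, Ier2 and Atf3 under none. Junb failed only without T920 (limma adjusted p = 0.0695). Jun passed without the first or the second array of T172 (limma adjusted p = 0.0494 and 0.0490). In those fits the error came from T284 alone, and 23.8% and 23.1% of all genes passed. Jun also passed with a term for the second arrays (limma adjusted p = 0.00141). With that term 7164 of 16877 genes were called, against 3094 without it; the cause was not tested. Jun in T176 passed under 19 alternatives (limma adjusted p from 0.00329 to 0.0116). The number of members called in single tumours ranged from 0, without T176, to 1 when 1 array was left out. With a threshold of 0.5, 3 members differed between the arrays of T172 and 2 between those of T284. The 2 pairs that passed were the least stable result: 0 passed with first arrays only, 0 without T172 and T284, and from 0 to 3 when 1 tumour was left out. The r of Jun with Ier2 ranged from -0.0664, without T176, to 0.73. The term for the second arrays follows the label biorep, which only T172 and T284 carry. The labels name no array round, so the term cannot be tied to a known batch. With 2 repeat pairs, the within-tumour spread is poorly known, and no signal over background was used.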
